A study of Mus musculus with 8 samples.

Results

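The genes described here encode the receptor complex for adrenomedullin and the peptide itself. They are Calcrl, Ramp1, Ramp2, Ramp3 and Adm, chosen by name, and all 5 were present among the 27179 genes of the count table. The level of each was compared between cells sorted from the lungs of tumor-bearing mice by their labeling with QZ1, an intravenous probe that is quenched until a protease cleaves its peptide and that then leaves a Cy5-tagged fragment on nearby cells. All libraries came from C57BL/6 mice (females of C57BL/6J in the study's methods) with a rearrangement of Eml4 and Alk, called the Eml4-Alk translocation in the labels, a model of non-small cell lung cancer made by delivering an adenovirus with Cas9 and guide RNAs to the lung. The mice were 18 to 22 weeks old and 11 to 12 weeks past tumor induction, and each received 4.5 nmol of QZ1 coupled to PEG 2 hours before the lungs were taken. Live cells gated as negative for CD45 and CD11b were divided into a QZ1-hi and a QZ1-lo population, at least 100000 cells each, with 4 libraries per population that the labels call biological replicates. Tumors were dissected from the lungs and made into suspensions with the tissue around them, and whether the tissues were kept apart is not stated. No library from healthy lung entered the comparison, and the purity of the populations was not assessed directly. The probe signal was gated against EpCAM.

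Calcrl is a G protein-coupled receptor that reaches the cell surface and binds its ligands only together with a receptor activity-modifying protein, or RAMP. Ramp1 makes it a receptor for calcitonin gene-related peptide (CGRP), whereas Ramp2 and Ramp3 make it a receptor for adrenomedullin, the peptide encoded by Adm. In blood vessels and lymphatics, the complex of Calcrl and Ramp2 couples through Gs to cyclic AMP and is known for its role in endothelial barrier function and vessel development.

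Total counts ranged from 18380918 to 26847938 per library. Mitochondrial and ribosomal RNA genes took 56.0% ± 10.1 of a QZ1-hi library and 41.9% ± 8.49 of a QZ1-lo library (SD, n = 4 each; two-sided exact permutation test, p = 0.114), which left between 8749446 and 16389316 counts per library for all other genes. Levels are given as CPM (counts divided by the TMM-scaled library size), and fold changes come from the quasi-likelihood test of edgeR, with p adjusted by Benjamini-Hochberg over 15583 genes. A level of 3 counts corresponds to between 0.0894 and 0.179 CPM. Removing the mitochondrial and ribosomal RNA genes before scaling gave log2 fold changes of 3.23 for Calcrl, 3.28 for Ramp2, 1.86 for Adm, -0.42 for Ramp1 and 0.51 for Ramp3.

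Calcrl, Ramp2 and Adm were higher in QZ1-hi than in QZ1-lo cells, and Ramp1 and Ramp3 did not pass the threshold in either direction. Thus 3 of the 5 genes were called higher, where 9.88% of all genes tested were, and none was called lower, where 8.21% of all genes tested were. None was called lower by DESeq2 or limma either. At an unadjusted p under 0.05 in edgeR 1 of the 5, Ramp1, was lower, as were 2106 of all 15583 genes tested. In 3 of the 5 genes the populations did not overlap, as for 22.6% of all genes tested in either direction. The median log2 fold change was 1.86 over the 5 genes and 0.02 over all genes tested. In sorted bulk RNA, fewer cells of a type and less RNA per cell cannot be told apart.

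**Figure D1:**
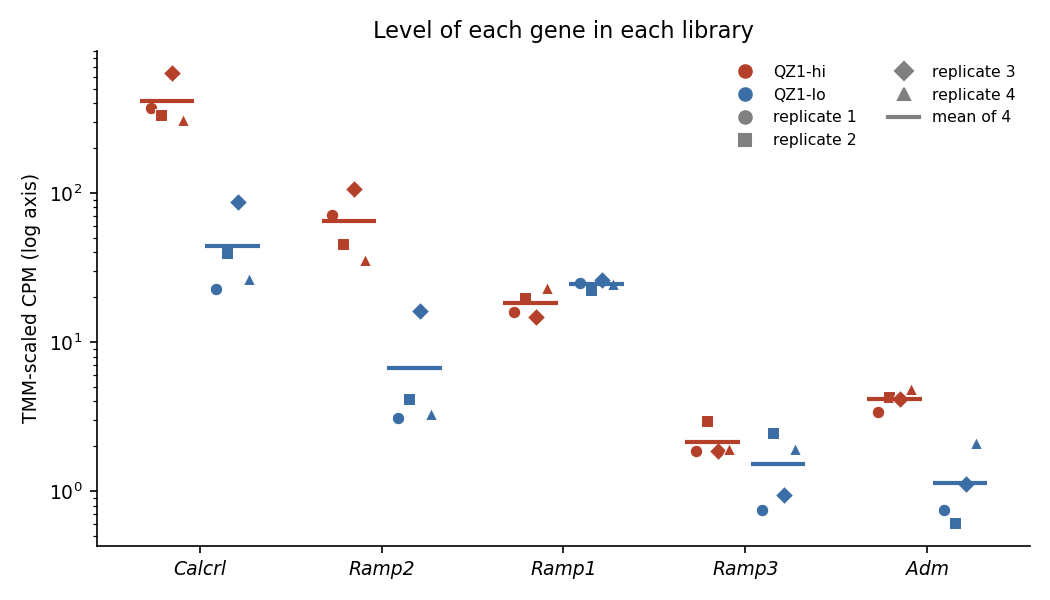
TMM-scaled CPM on a log axis for the 5 genes in the 4 QZ1-hi (red) and 4 QZ1-lo (blue) libraries. Each symbol is 1 library, its shape gives the replicate number, which only names a library, and the line is the mean. The populations are separate for Calcrl, Ramp2 and Adm and overlap for Ramp1 and Ramp3.

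Stretches of 250 bases that each precede a RefSeq transcript start (GRCm38.p6) are shown for Calcrl and Adm, which moved with the QZ1-hi population, and for Ramp1, which did not. They were searched on both strands for AGGAAG, whose GGAA is the core bound by ETS-family factors such as the endothelial factor Erg, and for ACGTG, the core of the hypoxia response element. The windows lie at chr2:84425267-84425516 on the minus strand, chr7:110627407-110627656 on the plus strand and chr1:91179572-91179821 on the plus strand, and are written 5′ to 3′ on the strand of the gene, with AGGAAG in capitals.
Calcrl: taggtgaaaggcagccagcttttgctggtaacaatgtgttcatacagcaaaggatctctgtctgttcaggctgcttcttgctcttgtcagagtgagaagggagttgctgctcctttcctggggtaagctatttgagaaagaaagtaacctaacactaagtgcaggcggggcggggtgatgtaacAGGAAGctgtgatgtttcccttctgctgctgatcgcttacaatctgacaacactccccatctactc
Adm: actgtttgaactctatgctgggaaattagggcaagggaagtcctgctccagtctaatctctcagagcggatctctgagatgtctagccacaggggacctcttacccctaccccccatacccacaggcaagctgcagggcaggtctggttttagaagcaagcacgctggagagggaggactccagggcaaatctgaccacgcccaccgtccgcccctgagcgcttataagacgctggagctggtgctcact
Ramp1: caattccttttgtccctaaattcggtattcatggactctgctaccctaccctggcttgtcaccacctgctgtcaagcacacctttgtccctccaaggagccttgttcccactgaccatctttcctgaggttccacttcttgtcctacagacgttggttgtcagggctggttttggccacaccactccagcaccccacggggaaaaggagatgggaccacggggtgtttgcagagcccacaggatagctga
AGGAAG was present once in the window of Calcrl, and not in those of Adm and Ramp1. The annotated Calcrl gene reaches to 84425405, so its window precedes an inner transcript start and lies partly inside the gene. The match in Calcrl lies in that inner part, not upstream of the whole gene. The window of Ramp3 also held AGGAAG, on the opposite strand and before the gene start at 6658506, although the end of that window runs into the gene. It was found in 29.5% of 32851 windows of this length. ACGTG was found in 16.6% of the windows and in none of these 4, and Ramp2 had no entry. A match describes the letters only.

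Calcrl (Entrez Gene 54598, chr2:84330626-84425405, minus strand, GRCm38) was the most abundant of the 5 genes. It was measured at 372, 333, 636 and 308 CPM in QZ1-hi replicates 1 to 4 and at 22.6, 39.6, 86.7 and 26.3 CPM in QZ1-lo replicates 1 to 4. The populations did not overlap, and each had its highest level in its replicate 3. The means were 412 ± 152 and 43.8 ± 29.5 CPM (SD, n = 4 each). This gave a log2 fold change of 3.23 ± 0.42 (SE), 9.41-fold, with an adjusted p of 0.000563 in edgeR. Its 242nd place among log2 fold changes of all 15583 genes set it inside a large group of genes with changes of that size.

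Ramp2, the partner that gives Calcrl its main adrenomedullin-binding form, had nearly the same fold change as the receptor. Its levels (Entrez Gene 54409, chr11:101246334-101248250, plus strand) were 71.4, 45.7, 106 and 35.5 CPM in QZ1-hi replicates 1 to 4 and 3.10, 4.15, 16.1 and 3.31 CPM in QZ1-lo replicates 1 to 4. The populations did not overlap, and QZ1-lo replicate 3 was several times above the other QZ1-lo libraries. The means were 64.7 ± 31.4 and 6.66 ± 6.29 CPM (SD, n = 4 each). The log2 fold change was 3.28 ± 0.56 (SE), 9.70-fold, with an adjusted p of 0.00201 in edgeR. QZ1-lo replicate 3 was also the QZ1-lo library with the highest summed level of 10 pan-endothelial markers, 286 CPM against 95.2, 125 and 70.3 CPM in replicates 1, 2 and 4. Without that library the log2 fold change was 4.20 for Ramp2 and 3.80 for Calcrl. Part of the annotated exons of Ramp2 is shared with Vps25 on the same strand, since transcripts in GENCODE run from one gene into the other. Of its exonic stretches of 50 bases, 30.7% also occur in Vps25, and none do in the transcripts linked to RefSeq.

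Ramp1, the partner for CGRP, did not pass the threshold. It was measured (Entrez Gene 51801, chr1:91179822-91225196, plus strand) at 15.9, 19.7, 14.7 and 23.2 CPM in QZ1-hi replicates 1 to 4 and at 24.9, 22.3, 26.1 and 24.7 CPM in QZ1-lo replicates 1 to 4. In 3 of the 4 QZ1-hi libraries the level was below every QZ1-lo library, and QZ1-hi replicate 4 lay within their range. Each QZ1-hi library was below the QZ1-lo library of the same number. The test was unpaired and does not use that order, and whether such libraries share a mouse is not stated. The means of 18.4 ± 3.85 and 24.5 ± 1.58 CPM (SD, n = 4 each) corresponded to a log2 fold change of -0.41 ± 0.16 (SE), with an unadjusted p of 0.0284 and an adjusted p of 0.116 in edgeR. Scaling by library size only moved the median of all genes to -0.44 and Ramp1 to -0.93, with an adjusted p of 0.0118 in edgeR, which is -0.49 relative to that median.

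Ramp3, the other adrenomedullin-binding partner, was at a low level in both populations. It was measured (Entrez Gene 56089, chr11:6658506-6677478, plus strand) at 1.86, 2.96, 1.85 and 1.91 CPM in QZ1-hi replicates 1 to 4 and at 0.745, 2.44, 0.941 and 1.92 CPM in QZ1-lo replicates 1 to 4, from 25 to 60 counts per library. The populations overlapped, and 1 QZ1-hi library, replicate 2, was above every QZ1-lo library. The means were 2.15 ± 0.545 and 1.51 ± 0.805 CPM (SD, n = 4 each), and the log2 fold change of 0.51 ± 0.49 (SE) had an adjusted p of 0.564 in edgeR. An SE of this size means that a moderate difference in either direction was not detectable. Ramp3 overlaps Gm11978 on the opposite strand. The library kit keeps strand, but whether counting used it is not given in the sources used here.

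Adm, the ligand, was higher in QZ1-hi cells at a low level in both populations. It was measured (Entrez Gene 11535, chr7:110627657-110629820, plus strand) at 3.39, 4.25, 4.16 and 4.83 CPM in QZ1-hi replicates 1 to 4 and at 0.745, 0.610, 1.12 and 2.09 CPM in QZ1-lo replicates 1 to 4. The populations did not overlap, and the QZ1-lo libraries were the more scattered. The means were 4.16 ± 0.590 and 1.14 ± 0.667 CPM (SD, n = 4 each), from 72 to 86 counts per QZ1-hi library and 15 to 51 per QZ1-lo library. The log2 fold change was 1.86 ± 0.44 (SE), 3.64-fold, with an adjusted p of 0.0129 in edgeR. With scaling by library size only it was 1.36, with an adjusted p of 0.0657 in edgeR, so that the call was lost, and relative to the median of all genes it was 1.81.

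Levels of different genes were compared per kb of exon. In QZ1-hi cells Calcrl stood at 84.4 ± 31.0 CPM per kb (SD, n = 4), followed by Ramp2 at 19.6 ± 9.52, Ramp1 at 6.08 ± 1.27, Adm at 2.57 ± 0.365 and Ramp3 at 1.56 ± 0.395 CPM per kb. In QZ1-lo cells Calcrl at 8.97 ± 6.04 and Ramp1 at 8.10 ± 0.523 CPM per kb were within their spread of each other, above Ramp2 at 2.02 ± 1.91, Ramp3 at 1.10 ± 0.584 and Adm at 0.705 ± 0.412 CPM per kb, and the last 3 overlapped in their SDs. Counting only exons of transcripts linked to RefSeq raised Ramp2 to 54.9 ± 26.7 and 5.65 ± 5.34 CPM per kb in QZ1-hi and QZ1-lo.

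Because the RAMP present decides which peptide the receptor binds, the share of each RAMP in the summed RAMP level per kb was computed in each library. Ramp2 made up 76.6%, 61.5%, 83.8% and 54.3% of the sum in QZ1-hi replicates 1 to 4 and 9.66%, 12.1%, 34.3% and 9.51% in QZ1-lo replicates 1 to 4. Ramp1 made up 18.7%, 29.0%, 12.7% and 38.8% in QZ1-hi and 84.8%, 70.9%, 60.8% and 77.3% in QZ1-lo. Ramp2 was therefore the larger share in every QZ1-hi library and Ramp1 in every QZ1-lo library. The mean share of Ramp2 differed by 52.6 percentage points (69.0% ± 13.5 against 16.4% ± 12.0, SD, n = 4 each) and that of Ramp1 by -48.7 points (24.8% ± 11.5 against 73.5% ± 10.1). Each difference had p = 0.0286 in a two-sided exact permutation test, the smallest that 4 against 4 libraries allow, and 0.0429 after Benjamini-Hochberg adjustment over the 3 shares. The share of Ramp3 was 6.20% ± 2.65 and 10.1% ± 5.94 (SD, n = 4 each; exact permutation test, p = 0.286). With RefSeq-linked exons, an alternative added after the data were seen, Ramp2 took 85.3% in QZ1-hi and 33.0% in QZ1-lo on average, and in QZ1-lo replicate 3 it was then the larger share, 59.2% against 37.4% for Ramp1. These are shares of RNA, and the shares add to a whole, so that a rise in Ramp2 lowers the others. Each library mixes cell types, and whether a RAMP lay in the same cells as Calcrl was not tested. The shares therefore do not give the RAMP available to the receptor. The level of Ramp1 itself did not pass the threshold.

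**Figure D2:**
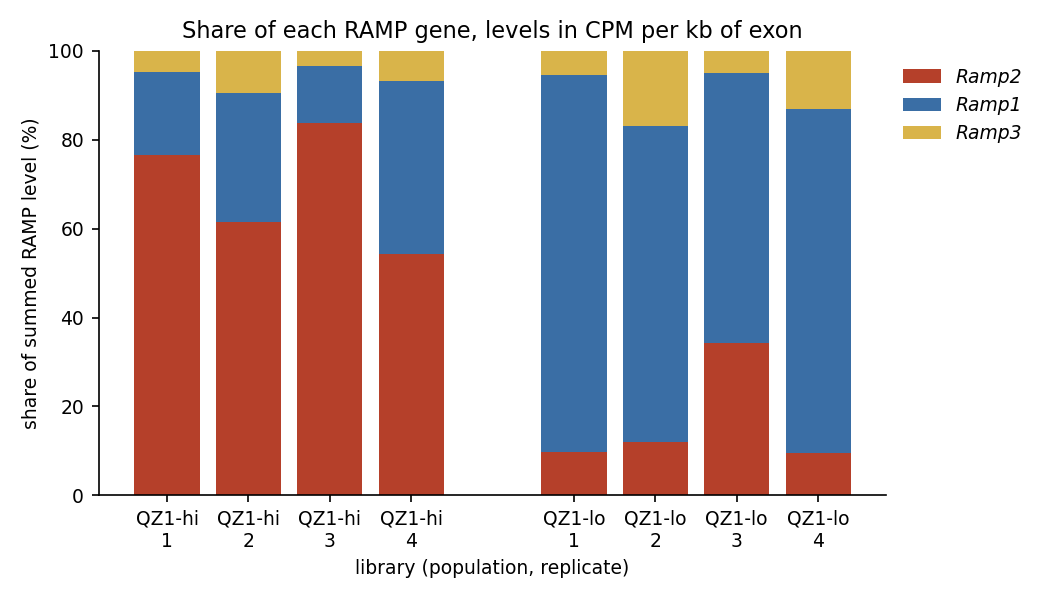
Share of Ramp2 (red), Ramp1 (blue) and Ramp3 (yellow) in the summed RAMP level of each library, in percent, from CPM per kb of merged exons. Ramp2 runs from 54.3% to 83.8% in QZ1-hi and from 9.51% to 34.3% in QZ1-lo.

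The cell types in the sort were read from marker lists. All 10 pan-endothelial genes were higher in QZ1-hi, with a median log2 fold change of 3.29, against 0.02 over all genes tested. Their summed level was 1477, 877, 2015 and 831 CPM in QZ1-hi replicates 1 to 4, and Cdh5, the endothelial cadherin, was the most abundant at 353 ± 169 against 30.4 ± 23.0 CPM (SD, n = 4 each). Of the lymphatic endothelial genes 5 of 6 were higher (median 3.93, with the defining factor Prox1 not past the threshold), of the general capillary genes 5 of 5 and of the fibroblast genes 6 of 7 (median 3.34). Of the pericyte genes 3 of 7 were higher, including Pdgfrb at 2.76 ± 0.54 (SE; adjusted p = 0.00459 in edgeR). Higher were also 4 of 5 aerocyte, 4 of 4 venous and 3 of 5 arterial endothelial genes, 3 of 3 mesothelial genes (2 in DESeq2 and in limma, and 1 without QZ1-lo replicate 3), 1 of 6 alveolar type 2 genes (Sftpc) and 2 of 5 smooth muscle genes, of which 1 more, Cnn1, was lower. By contrast, 4 of 4 club cell genes, 5 of 5 ciliated cell genes and 4 of 6 alveolar type 1 genes were lower. Of the sorting antigens, Eng (CD105) and Ly6a were higher at log2 fold changes of 3.45 and 1.37, Epcam was lower at -1.17, and Cd44, Itgam and Ptprc did not pass. No neuroendocrine (2 tested), erythroid (4 tested) or hematopoietic (5 tested) gene passed in edgeR, DESeq2 or limma. At an unadjusted p under 0.05 in edgeR 1, 3 and 0 of them were lower and none was higher. Of all 15583 genes tested, 2106 were lower and 2403 higher at that level. Among the hematopoietic genes was Ptprc, which encodes CD45, at 131 ± 64.2 and 125 ± 30.0 CPM (SD, n = 4 each) despite the CD45-negative gate. The summed level of the hematopoietic list lay between 2042 and 6098 CPM, most of it Lyz2, and which cells carried Lyz2 was not tested. The part of each cell type in the levels of the 5 genes was not tested.

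To see whether the 5 genes moved by as much as the endothelial markers, the mean log2(CPM + 0.5) of the 10 pan-endothelial genes was subtracted from the gene's own in each library. That mean was 6.53 ± 0.59 in QZ1-hi and 3.28 ± 0.88 in QZ1-lo (SD, n = 4 each), a difference of 3.26. Calcrl stood above the mean by 2.09 ± 0.25 in QZ1-hi and 1.99 ± 0.29 in QZ1-lo, a difference of 0.11 (two-sided exact permutation test, p = 0.543). Ramp2 stood at -0.63 ± 0.15 and -0.76 ± 0.41, a difference of 0.13 (exact permutation test, p = 0.571). The receptor and Ramp2 thus moved by an amount close to that of the marker mean, within the spread between libraries. A change of this size was not particular to the endothelial list, since the fibroblast genes had a median log2 fold change of 3.34. Against Cdh5 alone both differences changed sign, to -0.29 and -0.27, without passing the threshold.

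The other genes rose by less than the endothelial markers or not at all. Ramp1 stood at -2.32 ± 0.87 in QZ1-hi and 1.36 ± 0.86 in QZ1-lo, a difference of -3.68. Ramp3 stood at -5.15 ± 0.78 and -2.36 ± 1.18, a difference of -2.79. For both, p was 0.0286 in the two-sided exact permutation test, the smallest possible, and 0.0714 after adjustment over the 5 genes, which misses the threshold although the libraries of the populations did not overlap. Adm, at -4.32 ± 0.71 and -2.64 ± 1.19, differed by -1.68 (exact permutation test, p = 0.0571, adjusted 0.0952). Adm was therefore higher in QZ1-hi cells, but by fewer log2 units than the endothelial mean, a difference that did not pass.

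**Figure D3:**
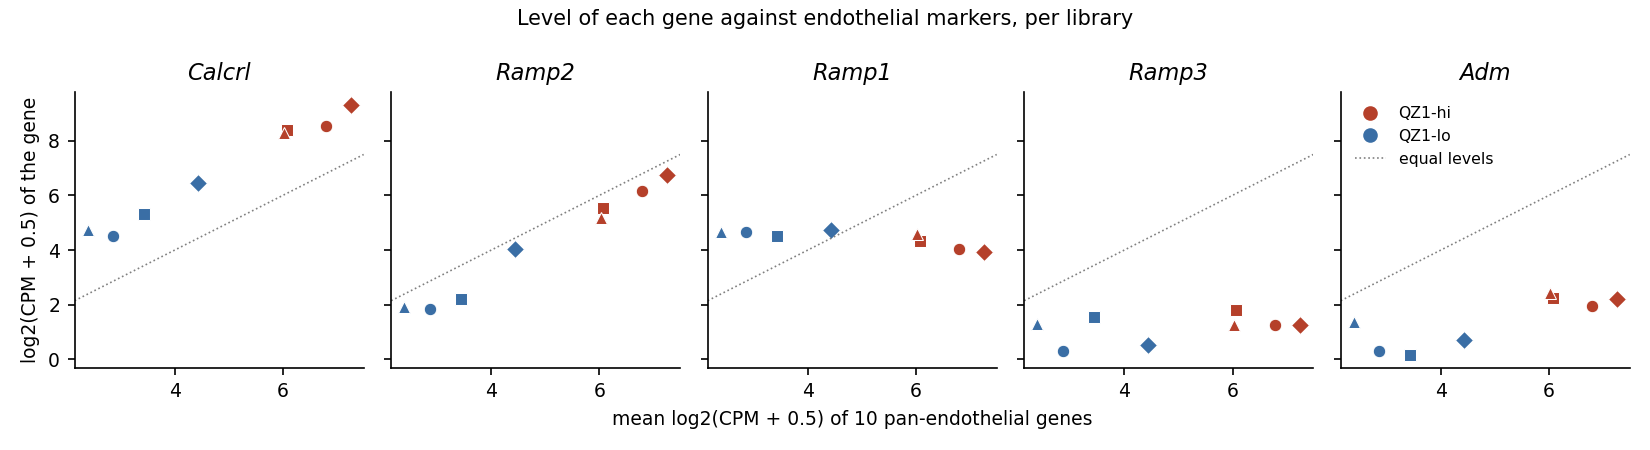
log2(CPM + 0.5) of each gene against the mean log2(CPM + 0.5) of 10 pan-endothelial genes, with 1 symbol per library (red, QZ1-hi; blue, QZ1-lo; shapes, replicate number as in the plot of levels by library) and a dotted line where both are equal. Calcrl and Ramp2 run parallel to the dotted line, offset by about 2.09 and -0.63 in QZ1-hi, whereas Ramp1, Ramp3 and Adm cross it or lie below it at a shallower slope.

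The match between the receptor and its main partner was also seen from library to library. Across the 8 libraries the Pearson correlation of log2(CPM + 0.5) was 0.990 between Calcrl and Ramp2, and 0.953 after the population means were removed. For Ramp2 and Cdh5 it was 0.992 and 0.958, and for Calcrl and Cdh5 0.990 and 0.922. Adm and Cdh5 correlated at 0.799 over all libraries and at -0.343 within populations, so that inside a population the level of Adm did not follow the endothelial marker. These values are descriptions over 8 libraries that fall into 2 populations and share their scaling.

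Among all genes tested, those most like Calcrl over the 8 libraries were Thbd, the anticoagulant receptor thrombomodulin (r = 0.998), Jcad, an endothelial junction protein (0.997), and Ptprb, the vascular endothelial phosphatase (0.997). Most like Ramp2 were Sema3f, a secreted semaphorin (0.998), Csgalnact1, an enzyme of chondroitin sulfate synthesis (0.997), and Glp1r, the receptor for glucagon-like peptide (0.997), at 12.5 CPM in QZ1-hi and 1.26 CPM in QZ1-lo. For Ramp1 they were Zfp568, a zinc finger gene (0.987), Cars, a tRNA synthetase (0.981), and E030018B13Rik (0.977). For Ramp3 they were Scel, an epithelial envelope protein (0.985), Mtres1 (0.971) and the pseudogene Tyms-ps (0.951). Adm was most like an Entrez Gene entry without a symbol (100038470; 0.982), the histone gene H2ax (0.975) and Angptl4, an inhibitor of lipoprotein lipase (0.974). These are the highest of many correlations and carry no test.

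Apart from these genes, the adrenomedullin and CGRP pathway was followed through 39 other genes, of which 33 had enough counts to be tested. Of these, 8 were higher in QZ1-hi and 1 was lower, with a median log2 fold change of 0.39. As a share of those tested this is above the 9.88% of all genes called higher, and no test of the list was made. The higher genes were 2 receptors, a processing enzyme and 5 genes of cyclic AMP signaling.

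None of the other ligands of the family was called in either direction, by edgeR, DESeq2 or limma. At an unadjusted p under 0.05 in edgeR 1 of the 2 tested, Calca, was lower, as were 2106 of all 15583 genes tested. Calca, which encodes CGRP and calcitonin, was measured at 0.805, 0.247, 0 and 0.775 CPM in QZ1-hi replicates 1 to 4 and at 1.40, 2.89, 1.38 and 1.39 CPM in QZ1-lo replicates 1 to 4. The populations did not overlap, but with 37 counts in all of QZ1-hi the log2 fold change of -1.93 ± 0.84 (SE) had an adjusted p of 0.155 in edgeR. Adm2, or intermedin, was at 1.00 ± 0.401 and 2.05 ± 0.703 CPM (SD, n = 4 each; log2 fold change -1.02, adjusted p = 0.227 in edgeR). Calcb was filtered out with 12 and 54 counts in the 2 populations, and Iapp, which encodes amylin, had 1 count over all libraries. Adm was thus the one ligand of the family that was called higher.

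Among other receptors, Calcr, the calcitonin receptor that RAMPs turn into amylin receptors, had 0 counts in every library, which allows a level of up to 0.179 CPM in the library with the smallest scaled size. Gpr182, an endothelial receptor formerly named as an adrenomedullin receptor and now known to scavenge chemokines, was at 8.82 ± 2.80 CPM in QZ1-hi and 0.484 ± 0.168 in QZ1-lo (SD, n = 4 each). Its log2 fold change of 4.17 ± 0.38 (SE; adjusted p = 0.000201 in edgeR) was above that of Calcrl. Ackr3, a decoy receptor that takes up CXCL12 and adrenomedullin, was at 23.9, 25.6, 75.7 and 27.4 CPM in QZ1-hi replicates 1 to 4 and at 2.03, 2.24, 8.11 and 0.246 CPM in QZ1-lo replicates 1 to 4, without overlap (log2 fold change 3.59 ± 0.73, SE; adjusted p = 0.00572 in edgeR). Crcp, which couples the CGRP receptor to signaling and is also an RNA polymerase subunit, did not pass at -0.37 ± 0.24 (SE).

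Of the genes for peptide processing and clearance, 1 of 5 tested was higher. Cpe, a carboxypeptidase that trims peptide precursors, rose by 2.68 ± 0.34 on the log2 scale (SE; adjusted p = 0.000526 in edgeR). Pam, the enzyme that amidates adrenomedullin and CGRP, was at 131 ± 45.2 and 110.2 ± 24.0 CPM (SD, n = 4 each) and did not pass. The peptidases Mme (neprilysin) and Ide and the convertase Furin did not pass either, at log2 fold changes of 0.19, -0.17 and 0.15. The neuroendocrine convertases Pcsk1 and Pcsk2 were filtered out.

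Downstream of the receptor, 5 of 23 tested genes of Gs and cyclic AMP signaling were higher and 1 was lower. The higher genes were the adenylyl cyclase Adcy4 at a log2 fold change of 2.45 ± 0.30 (SE), the cyclic AMP sensors Rapgef3 and Rapgef4 (Epac proteins) at 2.07 ± 0.31 and 2.36 ± 0.47, and Grk5 and Arrb1, which desensitize receptors, at 1.66 ± 0.18 and 1.37 ± 0.15. Prkar2a, a regulatory subunit of protein kinase A, fell by 0.79 on the log2 scale (SE 0.12; adjusted p = 0.00134 in edgeR), from 94.6 ± 11.5 CPM in QZ1-lo to 54.5 ± 5.02 CPM in QZ1-hi (SD, n = 4 each). Gnas, which encodes the Gs alpha subunit, was at 333 ± 34.3 and 299 ± 15.7 CPM (SD, n = 4 each) and did not pass at 0.16 ± 0.11 (SE). The catalytic subunits Prkaca and Prkacb stood at 0.03 and 0.43, also not past the threshold.

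**Figure D4:**
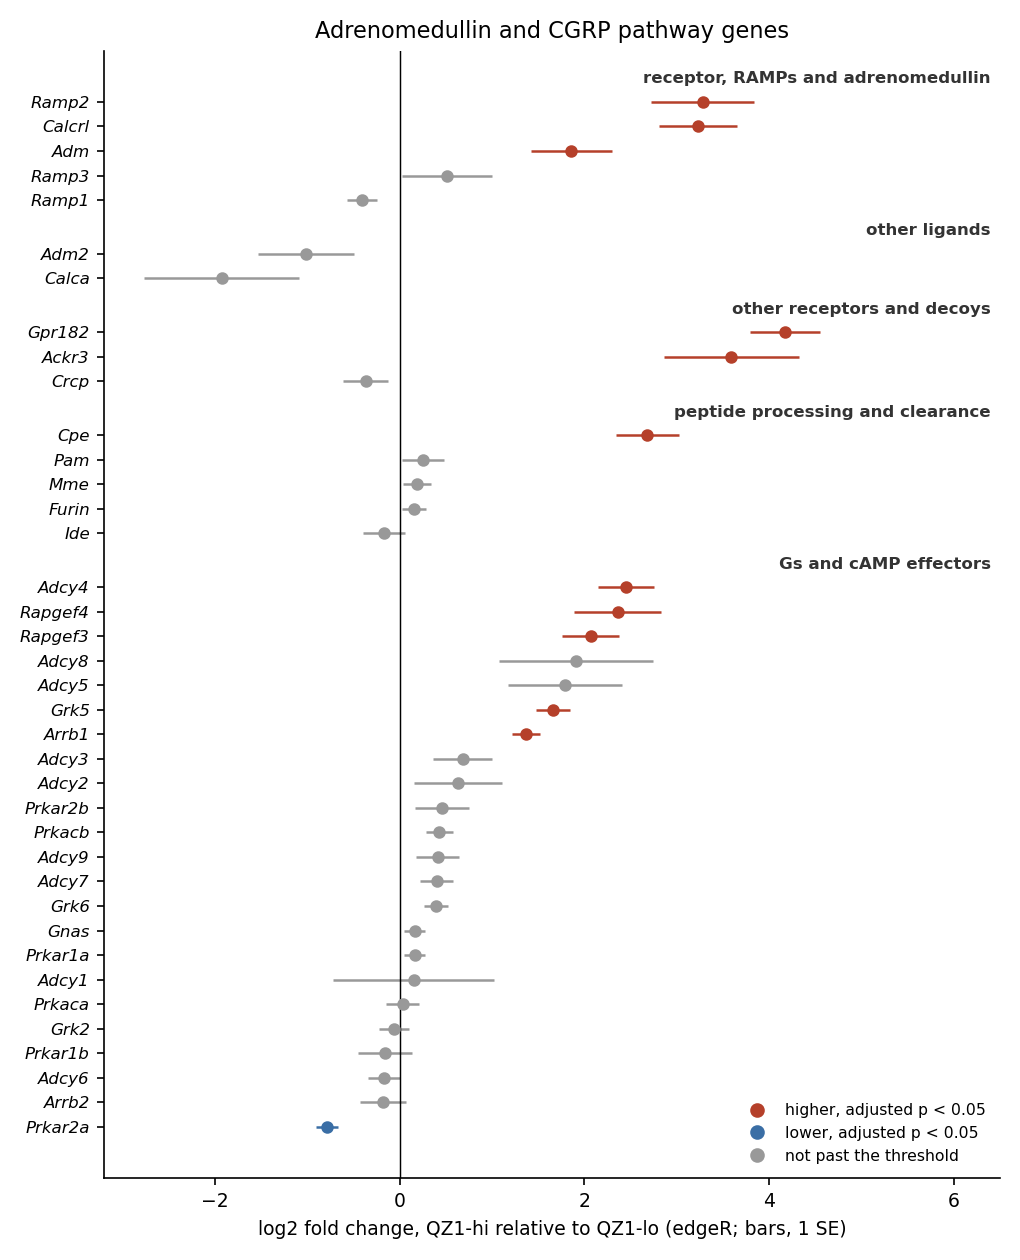
log2 fold change (QZ1-hi relative to QZ1-lo) with 1 SE for the 5 genes and the 33 other pathway genes tested, in groups by role. Red points are higher and blue points lower at an adjusted p under 0.05, and grey points did not pass. The largest changes, above 3, are those of Gpr182, Ackr3, Ramp2 and Calcrl.

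Adm is known to be induced by low oxygen, and 13 other genes known for that were read beside it. None was called higher by edgeR or DESeq2, and 1 was by limma. At an unadjusted p under 0.05 in edgeR 3 of the 13 were higher, as were 2403 of all 15583 genes tested. With 1 called lower, the list was close to the background of 9.88% higher and 8.21% lower among all genes, and 8 of the 13 log2 fold changes were positive. Their median log2 fold change was 0.23. Bhlhe40, a transcriptional repressor, was lower at 187 ± 16.2 against 276 ± 28.4 CPM (SD, n = 4 each; log2 fold change -0.56 ± 0.12, SE; adjusted p = 0.0072 in edgeR). The 3 genes higher at an unadjusted p under 0.05 were Ankrd37 (log2 fold change 0.62, without overlap), Pdk1 (0.54) and P4ha1 (0.40), with adjusted p of 0.102, 0.0789 and 0.159 in edgeR. Vegfa, at 217 ± 16.6 and 249 ± 34.8 CPM, and the glucose transporter Slc2a1, at 23.0 ± 4.59 and 25.9 ± 4.22 CPM (SD, n = 4 each), did not pass. Whether low oxygen played a part in the level of Adm was not tested.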

How the data were processed

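RNA-seq of 4 QZ1-hi and 4 QZ1-lo populations was analysed. The authors deposited raw counts per gene by Entrez Gene identifier, made with Rsubread and not normalized (build mm10 per the labels). They were fitted in edgeR 4.0.16 under R 4.3.3 (TMM, filterByExpr with a minimum count of 10 and a total of 15, quasi-likelihood test without covariates, Benjamini-Hochberg adjustment, threshold 0.05). Each SE is |log2 fold change| over the root of F. Two-sided exact permutation tests of single values used all 70 assignments of libraries. Lengths were merged GENCODE M21 exons, and upstream windows were RefSeq's. Symbols were found for 25293 of 27179 genes. The reads carry no molecular identifiers and may not be independent, so the level of 3 counts covers counting error only. Replicates were numbered in accession order, and no source says which populations came from one mouse, or that each replicate is 1 mouse. The members and gene lists were chosen with earlier results of these data known. Genes were named from the members, the pathway and marker lists (those named within a list were chosen after their values were seen), and the 3 genes most correlated with each member. 1 pathway gene is not reported here. The alternatives were DESeq2 1.42.0, limma 3.58.1 (voom with quality weights), other scalings, filters, thresholds, lengths and pseudocounts, and each library left out in turn. The single-cell, imaging and sensor experiments were not analysed here.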

Additional observations from a re-analysis of the deposited data

Results flagged for a closer look

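Of 92 groups of 4 values examined, 7 had 1 library far from the other 3, where chance gives about 1 in 20. QZ1-lo replicate 3 held Ramp2 at 16.1 CPM where the rest of the population had 3.10 to 4.15 CPM, a Ramp2 share of 34.3% against 9.51% to 12.1%, and Adcy4 at 11.9 CPM against 4.87 to 5.29 CPM. QZ1-hi replicate 2 held Ramp3 at 2.96 CPM against 1.85 to 1.91 CPM and Cpe at 22.0 CPM against 10.5 to 11.7 CPM. QZ1-hi replicate 3 held Ackr3 at 75.7 CPM against 23.9 to 27.4 CPM, and QZ1-lo replicate 2 held Calca at 2.89 CPM against 1.38 to 1.40 CPM.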

How the results depend on the processing

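Calcrl and Ramp2 were called higher under all 8 other scalings, filters and tests, at log2 fold changes of 2.80 to 3.58 and 2.86 to 3.80, and with each library left out (2.93 to 3.80 and 2.92 to 4.20). Adm ranged from 1.66 to 2.32 with a library left out, still called, and from 1.36 to 2.07 under the other settings. With library size only, Adm fell short at 1.36, Ramp1 was called lower at -0.93, 882 genes were higher and 2509 lower (26.0% of calls higher, against 54.6% of 1540 and 1280 with TMM), and 2 other pathway genes were lower in place of 1. A threshold of 0.01 left 902 higher and 665 lower genes, and Adm, with an adjusted p of 0.0129 in edgeR, was then not called. With a library left out, 1136 to 1506 genes were higher and 938 to 1201 lower, and 8 to 10 pathway genes were higher. Under the other scalings, filters and tests 6 to 10 pathway genes were higher. The count was 6 with at least 10 counts required in every library, and 10 with DESeq2 and with limma. In the low-oxygen list 1 gene was higher with limma and 0 to 1 with a library left out. Relative to the endothelial mean, Calcrl reversed to -0.29 and Ramp2 to -0.27 against Cdh5 alone, and Ramp2 to -0.02 without QZ1-lo replicate 2. With a library left out Calcrl ranged from 0.00 to 0.23, Ramp2 from -0.02 to 0.26, Ramp1 from -4.03 to -3.34, Ramp3 from -3.31 to -2.38 and Adm from -2.04 to -1.14, the lowest of the last 3 being without QZ1-lo replicate 3 and past the threshold (exact permutation test, adjusted p = 0.0476). They also passed with a pseudocount of 2 CPM (-3.39, -2.74 and -2.01) and against Cdh5 alone (-4.08, -3.19 and -2.08), and the cause was not tested. With a library left out, the share of Ramp2 differed by 47.7 to 58.6 points, that of Ramp1 by -53.4 to -44.7 and that of Ramp3 by -5.72 to -1.65. The p of Ramp1 and Ramp2 was already the smallest of the test and says nothing of stability. No paired analysis was possible because the labels give no replicate numbers that link the populations. Library titles alternate between QZ1-hi and QZ1-lo, and the levels of Marco and Hba-a1 followed that order in both, so that the populations may share mice. Taken in that order, Ramp1 and every erythroid gene were lower in each QZ1-hi library than in the QZ1-lo library of the same number. The share of mitochondrial and ribosomal RNA genes was higher in each. Where the populations share mice, the unpaired tests can miss such differences within a mouse. Adm and Ramp3 rest on 15 to 86 counts per library, which limits both.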
